A study of Mus musculus with 59 samples.

Results

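Peaks of the repressor BCL6 and of the nuclear receptor PPARα were compared in the livers of fed mice. The members were all peaks of the fed C57BL/6 lists, 15642 for BCL6 and 21410 for PPARα, which together made 37052 of the 102931 peaks in the 7 lists of the series. A BCL6 peak and a PPARα peak were called shared when their centers lay at most 200 bp apart. A peak with no such partner was called specific to its factor.

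The study mapped transcription factors in mouse liver by ChIP-seq, in which DNA crosslinked to a protein is pulled down with an antibody and sequenced. Both fed groups were male wild type C57BL/6 mice fed ad lib, with 3 replicates for BCL6 and 3 for PPARα. For comparison, lists were used from fed *Bcl6* fl/fl livers (BCL6 only, the floxed controls of the liver knockout, 3 replicates), from overnight fasted C57BL/6 livers (BCL6 and PPARα, 3 replicates each) and from fed C57BL/6 livers for PPARδ (3 replicates). All livers were crosslinked with disuccinimidyl glutarate and then formaldehyde, which also holds proteins that touch DNA through other proteins. The antibodies against BCL6 and PPARδ were custom guinea pig sera and that against PPARα was a commercial rabbit serum, so antibody and factor cannot be told apart. The replicates of a group were pooled in each list, and the lists give positions only, with no peak height or read count. A peak is therefore present or absent, no value has an error between replicates, and the sequencing depth is unknown. Intervals below are 95% Wilson intervals of shares or 95% intervals of odds ratios, and cover counting error only. Fisher's exact tests count peaks or promoters, which are not replicates of a liver.

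BCL6 is a zinc finger protein of the BTB family that silences genes by recruiting corepressors such as BCOR, and is best known from germinal center B cells. PPARα is a receptor for fatty acids that binds DNA with RXR and drives fatty acid oxidation and ketone production in the fasted liver. Its element, the DR1, is a direct repeat of AGGTCA with 1 base between the copies, while BCL6 reads a palindrome close to the STAT element.

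The sequences below were chosen for the elements they hold. These were the BCL6 element with a DR1 at shared peaks and the BCL6 element at BCL6-specific peaks. At PPARα-specific promoter peaks it was an ETS element, which is not the element of PPARα. Each sequence is the plus strand of GRCm38 (mm10), and capitals mark the elements. The 5 shared peaks came from lipid genes and genes followed by qPCR in the study, and were those with both a BCL6 element (TTCCTAGAA, up to 1 mismatch) and a DR1 (up to 2 mismatches) in the 200 bp around the BCL6 center. In *Lipc*, which encodes hepatic lipase, the shared peak lay in intron 2 (window chr9:70827917-70828116) and held an exact BCL6 element. In *Abhd2*, an α/β-hydrolase gene, it lay in intron 2 (window chr7:79295246-79295445). Near *Bdh1*, the β-hydroxybutyrate dehydrogenase of ketone metabolism, it lay 22916 bp upstream (window chr16:31399281-31399480). Near *Dgat2*, which makes triglyceride, it lay 12023 bp upstream (window chr7:99194636-99194835). Near *Ppara* itself it lay 2738 bp upstream (window chr15:85732726-85732925).
Lipc: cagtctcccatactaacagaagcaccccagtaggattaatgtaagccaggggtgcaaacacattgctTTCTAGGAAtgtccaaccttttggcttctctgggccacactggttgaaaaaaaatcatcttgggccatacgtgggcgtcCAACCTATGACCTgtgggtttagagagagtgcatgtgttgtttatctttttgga
Abhd2: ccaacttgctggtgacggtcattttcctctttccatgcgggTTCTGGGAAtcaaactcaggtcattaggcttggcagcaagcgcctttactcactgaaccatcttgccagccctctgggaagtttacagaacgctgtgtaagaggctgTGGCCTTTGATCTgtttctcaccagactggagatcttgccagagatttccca
Bdh1: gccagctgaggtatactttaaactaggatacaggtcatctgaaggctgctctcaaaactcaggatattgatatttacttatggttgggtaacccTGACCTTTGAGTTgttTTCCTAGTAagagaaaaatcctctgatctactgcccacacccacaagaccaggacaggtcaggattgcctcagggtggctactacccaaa
Dgat2: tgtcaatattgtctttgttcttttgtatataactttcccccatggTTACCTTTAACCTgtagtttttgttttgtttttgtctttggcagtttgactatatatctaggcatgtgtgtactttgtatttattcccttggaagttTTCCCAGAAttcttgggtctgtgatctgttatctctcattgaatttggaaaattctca
Ppara: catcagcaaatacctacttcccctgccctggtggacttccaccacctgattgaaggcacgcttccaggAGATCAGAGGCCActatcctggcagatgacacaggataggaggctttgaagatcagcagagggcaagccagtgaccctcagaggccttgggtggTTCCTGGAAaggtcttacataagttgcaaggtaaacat
In the *Bdh1* window the elements are 3 bases apart, whereas in the other 4 windows they stand farther from each other.

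BCL6-specific peaks with an exact BCL6 element numbered 11 near the genes of the lists described below, and 2 are shown. The peak on *Bcl6* itself lay in the noncoding exon 1 of the gene, 232 bp downstream of its start (30 bases shown, chr16:23988579-23988608). The peak near *Elovl6*, a fatty acid elongase gene, lay 89457 bp upstream (window chr3:129442829-129443028). PPARα-specific promoter peaks with an exact ETS element (CCGGAAGT) numbered 8 near listed genes. Those shown lay at the starts of *Atg7*, an enzyme of autophagosome formation (chr6:114643123-114643152), and of *Cpt2*, the inner carnitine palmitoyltransferase of mitochondria (chr4:107923584-107923613).
Bcl6: tgtccggcctTTCCTAGAAacttcttgcat
Elovl6: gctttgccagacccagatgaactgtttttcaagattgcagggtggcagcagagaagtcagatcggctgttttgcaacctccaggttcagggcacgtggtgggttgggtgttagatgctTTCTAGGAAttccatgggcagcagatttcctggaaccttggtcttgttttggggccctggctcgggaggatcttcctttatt
Atg7: ggctgtggttgCCGGAAGTtgagcggcggt
Cpt2: cccacaggggcACTTCCGGgcaccgatagg
The BCL6 element was on the minus strand in the *Lipc*, *Abhd2* and *Elovl6* windows, as was the ETS element at *Cpt2*.

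In fed livers most BCL6 peaks lay on a PPARα peak, and about as many PPARα peaks lay alone as with BCL6. Of the 15642 BCL6 peaks, 10956 were shared (70.0%, 69.3% to 70.8%) and 4686 were BCL6-specific. Of the 21410 PPARα peaks, 10956 were shared (51.2%, 50.5% to 51.8%) and 10454 were PPARα-specific. No peak had more than 1 partner, so the shared peaks of the factors formed 10956 pairs. By chromosome, the shared part of the BCL6 peaks ran from 60.2% on X to 76.3% on chromosome 19, leaving out Y, which had 2 BCL6 peaks and no PPARα peak. The shared part of the PPARα peaks ran from 41.2% on chromosome 11 to 58.7% on chromosome 3. When only BCL6 peaks that were called again in fed *Bcl6* fl/fl livers were kept, 78.7% of them were shared, and 39.9% of the PPARα peaks.

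The centers of a pair were mostly much closer than the distance allowed. The median was 27 bp (quartiles 13 and 48 bp), 2336 pairs (21.3%) lay within 10 bp, 8479 (77.4%) within 50 bp and 10549 (96.3%) within 100 bp. The number of BCL6 peaks per 10 bp of distance fell from 2115 below 10 bp to 9 in the last 10 bp below the limit. Around the limit, 8 BCL6 peaks had their nearest PPARα center in the last 10 bp inside it and 8 in the first 10 bp beyond it. BCL6-specific peaks lay at a median of 14.7 kb from the nearest PPARα peak, with 148 (3.16%) within 400 bp and 10.7% within 1 kb. PPARα-specific peaks lay at a median of 15.1 kb from the nearest BCL6 peak, with 149 (1.43%) within 400 bp and 7.92% within 1 kb. Peaks of either specific class were thus rarely just outside the limit.

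**Figure D1:**
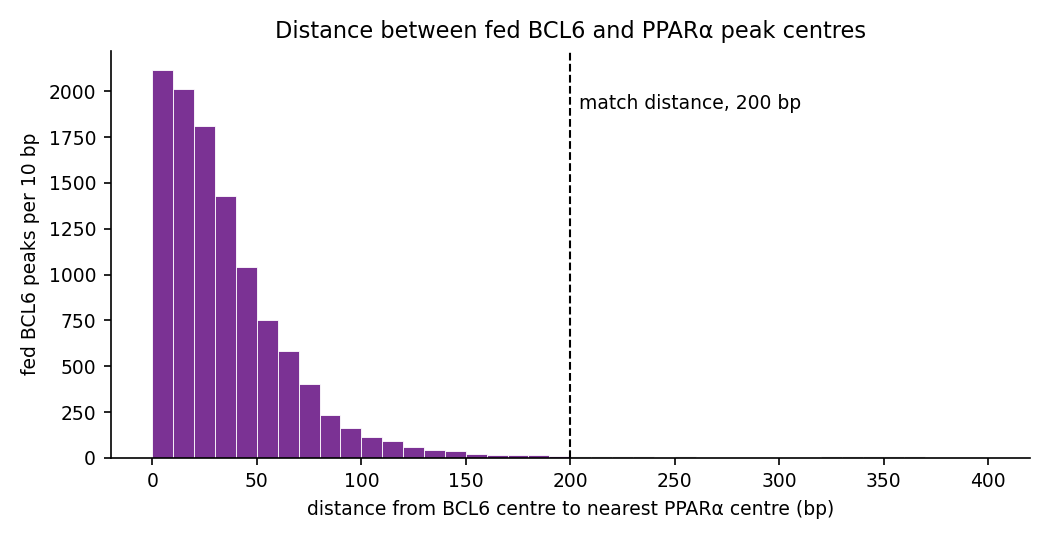
Distance from each fed BCL6 peak center to the nearest fed PPARα peak center (x axis, bp) against the number of BCL6 peaks per 10 bp (y axis), up to 400 bp; purple bars lie below the 200 bp limit and gray bars beyond it. The count falls from 2115 in the bar nearest 0 to under 20 per bar from 160 bp on.

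Pairs with close centers recurred more often in other lists than pairs near the limit. Of the 2336 pairs within 10 bp, 81.1% (79.5% to 82.7%) had a BCL6 peak in fed *Bcl6* fl/fl livers and 39.6% a fed PPARδ peak. Of the 407 pairs over 100 bp apart, these shares were 63.6% (58.9% to 68.2%) and 30.7%. The BCL6 element showed the opposite order, in 10.5% of windows of the closest pairs and 18.4% (15.0% to 22.5%) of those of the farthest, while the DR1 was in 12.6% and 7.62%. These groups were compared as values, without a test.

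The word specific describes a call in these 2 lists, and other lists held calls of the second factor at many specific peaks. BCL6 was called in fed *Bcl6* fl/fl livers at 3323 of the 10454 PPARα-specific peaks (31.8%, 30.9% to 32.7%). PPARα was called in fasted livers at 1262 of the 4686 BCL6-specific peaks (26.9%, 25.7% to 28.2%). No PPARα or PPARδ peak in any list used lay at 3347 BCL6-specific peaks (71.4%), and no BCL6 peak in any list used lay at 6699 PPARα-specific peaks (64.1%).

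Shared peaks were called again far more often than specific peaks. In the fed *Bcl6* fl/fl livers, a second set of mice, a BCL6 peak lay at 8548 of 10956 shared peaks (78.0%, 77.2% to 78.8%) and at 2312 of 4686 BCL6-specific peaks (49.3%, 47.9% to 50.8%). The odds ratio was 3.65 (3.39 to 3.92, Fisher's exact test, two-sided, p = 4.83e-268). Outside promoters the odds ratio was 3.68. Peak height is not in the lists, so its part in this difference was not tested. From its combined fed and fasted peaks, the study reported that each factor bound most strongly where both were present.

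After fasting, the classes separated in the same direction. A fasted BCL6 peak lay at 58.2% of shared and 27.3% of BCL6-specific peaks (odds ratio 3.72, 3.45 to 4.00, adjusted exact p = 2.64e-283 over 4 tests). A fasted PPARα peak lay at 85.5% of shared and 73.9% of PPARα-specific peaks (odds ratio 2.09, 1.95 to 2.23, adjusted exact p = 2.2e-100). For the other factor the gaps were wider. The classes had been split by the fed calls of that same factor, so these gaps follow in large part from the rule. They are a description only. Fasted PPARα was called at 85.5% of shared peaks against 26.9% of BCL6-specific peaks (odds ratio 16.0, 14.7 to 17.4). Fasted BCL6 was called at 58.2% of shared peaks against 10.2% of PPARα-specific peaks (odds ratio 12.2, 11.4 to 13.2), and for both the p-value was below the smallest number the software holds. The fasted BCL6 list is shorter (9613 peaks) and the fasted PPARα list longer (29085) than their fed lists, and whether that reflects depth cannot be told from positions. The study reported less BCL6 and more PPARα, in RNA and protein, after fasting, and its part in the list lengths was not tested.

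Taking both fasted lists together, 5946 of the 10956 shared pairs (54.3%, 53.3% to 55.2%) still had both factors. Another 3422 (31.2%) had PPARα alone, 432 (3.94%) had BCL6 alone and 1156 (10.6%) had neither. BCL6-specific peaks most often had neither factor in fasted livers (2607 of 4686, 55.6%), and 817 (17.4%) had BCL6 alone, 801 (17.1%) PPARα alone and 461 (9.84%) both. PPARα-specific peaks most often kept PPARα alone (6738 of 10454, 64.5%). Neither factor was called at 2648 of them (25.3%), both at 988 (9.45%) and BCL6 alone at 80 (0.765%).

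PPARδ, the isotype that many tissues use for fat oxidation, was called most often where BCL6 and PPARα met. A fed PPARδ peak lay at 4000 of 10956 shared peaks (36.5%, 35.6% to 37.4%), 1901 of 10454 PPARα-specific peaks (18.2%, 17.5% to 18.9%) and 210 of 4686 BCL6-specific peaks (4.48%, 3.93% to 5.11%). Shared peaks exceeded PPARα-specific peaks by an odds ratio of 2.59 (2.43 to 2.75, Fisher's exact test, adjusted p = 1.1e-200). They exceeded BCL6-specific peaks by 12.3 (10.6 to 14.2). The study placed most PPARδ sites on PPARα sites, so this gap too follows in large part from the rule. At promoters, PPARδ was called at 37.4% of shared and 11.8% of PPARα-specific PPARα peaks.

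**Figure D2:**
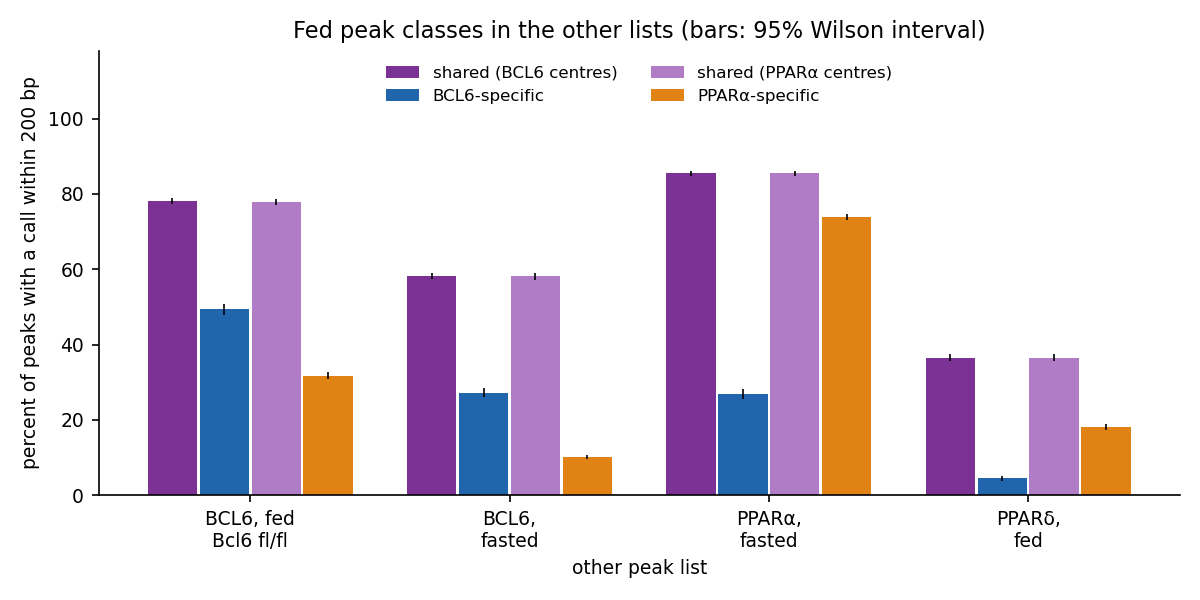
Percent of peaks of each fed class (y axis; bars, with 95% Wilson intervals as lines) that had a peak center within 200 bp in each of 4 other lists (x axis). Shared peaks stand above both specific classes in all 4 lists, and BCL6-specific peaks are at 4.48% for fed PPARδ.

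The classes differed in where they lay. A promoter was the stretch from 1000 bp upstream to 100 bp downstream of any of 45756 RefSeq transcript starts. Of PPARα-specific peaks, 1434 of 10454 (13.7%, 13.1% to 14.4%) were in a promoter, against 487 of 10956 shared PPARα peaks (4.45%, 4.07% to 4.85%). The odds ratio of shared against PPARα-specific was 0.293 (0.263 to 0.326, Fisher's exact test, adjusted p = 1.98e-128 over 3 tests). BCL6-specific peaks were in promoters in 206 of 4686 cases (4.40%, 3.85% to 5.02%), also below the PPARα-specific share (odds ratio 0.289, 0.249 to 0.336, adjusted exact p = 8.27e-75). Between shared and BCL6-specific BCL6 peaks no difference was found (4.34% and 4.40%, odds ratio 0.988, 0.836 to 1.17, adjusted exact p = 0.898). With the BCL6 list of fed *Bcl6* fl/fl livers in place of the C57BL/6 list, however, shared peaks were less often in promoters than BCL6-specific peaks (odds ratio 0.677, 0.602 to 0.760, adjusted exact p = 1.46e-10). With that list the gaps to PPARα-specific peaks narrowed, to an odds ratio of 0.502 (0.456 to 0.553) for shared and 0.735 (0.659 to 0.820) for BCL6-specific peaks.

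Intergenic peaks made up 44.3% of shared, 40.8% of BCL6-specific and 34.7% of PPARα-specific peaks, and intragenic peaks 51.3%, 54.8% and 51.6%. The median distance to the nearest protein-coding start was 26.5 kb for shared, 28.2 kb for BCL6-specific and 15.5 kb for PPARα-specific peaks. Over 100 kb from any such start lay 19.5%, 22.2% and 12.3% of the peaks. Positions within promoters were read from the nearest protein-coding start. They covered 1336 of 1434 PPARα-specific, 410 of 476 shared (BCL6 centers) and 184 of 206 BCL6-specific promoter peaks. The centers of PPARα-specific peaks sat close to that start, at a median of 91.5 bp upstream, with 67.4% between 200 bp before and 100 bp after it. Shared peaks had a median of 148.5 bp upstream by the BCL6 center (55.9% in that stretch) and BCL6-specific peaks 266 bp upstream (40.8%).

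**Figure D3:**
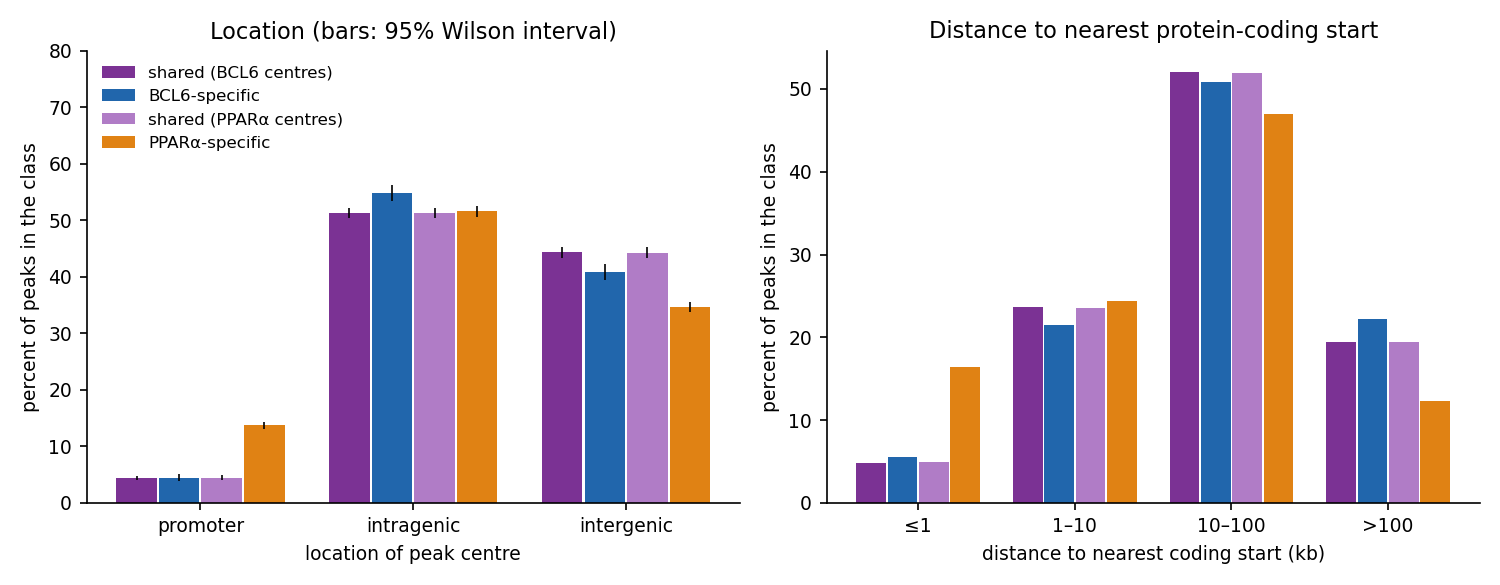
Left, percent of peaks of each class (y axis) in promoters, in genes outside promoters and between genes (x axis), with 95% Wilson intervals; right, percent of peaks (y axis) by distance to the nearest protein-coding start (x axis, kb). PPARα-specific peaks stand apart at promoters, with 13.7% against 4.34% to 4.45% in the other classes, and at starts up to 1 kb away.

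Promoters of different sequence type carried the classes. CpG-rich promoters, typical of housekeeping genes, have a CpG island at the start, whereas CpG-poor promoters are typical of tissue-specific genes. Of 21000 protein-coding genes, 412 (1.96%) had a shared peak in a promoter, 158 (0.752%) had BCL6-specific peaks there and no peak of another class, and 1304 (6.21%) had PPARα-specific peaks and no peak of another class. CpG-rich promoters made up 1088 of the 1304 PPARα-specific promoters (83.4%, 81.3% to 85.4%) and 180 of the 412 shared promoters (43.7%, 39.0% to 48.5%), against 61.5% of all genes. The odds ratio of shared against PPARα-specific was 0.154 (0.121 to 0.196, Fisher's exact test, adjusted p = 1.83e-52). BCL6-specific promoters lay between these, with 111 of 158 CpG-rich (70.3%, 62.7% to 76.8%), and differed from shared promoters too (odds ratio 0.329, 0.222 to 0.487, adjusted exact p = 1.45e-08). CpG-poor promoters were 33.3% of shared, 15.2% of BCL6-specific and 7.06% of PPARα-specific promoters, and 22.5% of all genes. Of the genes with only PPARα-specific peaks in the promoter, 555 (42.6%) were the nearest gene of a shared peak elsewhere.

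Base composition moved with the class. The 200 bp around the center had a median G+C content of 59.5% and 12 CpG dinucleotides at PPARα-specific promoter peaks, against 46.5% and 2 at shared promoter PPARα peaks. Outside promoters the medians were 49.0% and 44.5%, and BCL6-specific distal peaks were at 43.0%. ChIP-seq libraries can favor some base compositions, and the part of this in the differences was not tested.

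To compare sequence, 13 elements were searched on both strands of the 200 bp windows and 26 comparisons between classes were tested together, of which 19 passed. The letters were TTCCTAGAA for BCL6 and CAAAGTCCA for HNF4 (1 mismatch each), and the DR1 with 2 mismatches. Exact letters were used for FOXA (TGTTTAC), C/EBP (TTGCNNAA), HNF6 (TATTGAT), STAT (TTCNNNGAA, which overlaps the BCL6 element), the GC box (GGGCGG), ETS (CCGGAAGT), NRF1 (TGCGCATGC), NFY (GCCAAT), CRE (TGACGTCA) and YY1 (AAGATGGCG). DR1 and the HNF4 letters also overlap in part. As controls, the same windows were moved 1000 bp to either side, and windows of equal length at all protein-coding starts were read. A match is a description of the letters and not evidence of a bound site.

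The BCL6 element was most common where BCL6 stood without PPARα. It occurred in 1222 of 4686 BCL6-specific windows (26.1%, 24.8% to 27.4%) and 1282 of 10956 shared windows (11.7%, 11.1% to 12.3%), with 7.04% and 7.10% in the windows to the side and 4.84% at coding starts. The odds ratio of shared against BCL6-specific was 0.376 (0.344 to 0.410, adjusted exact p = 1.92e-103). Around PPARα centers it occurred in 10.2% of shared and 6.19% of PPARα-specific windows (odds ratio 1.72, 1.55 to 1.90, adjusted exact p = 4.15e-26), the latter share below the 7.27% of its side windows. Among BCL6-specific peaks, those called again in *Bcl6* fl/fl livers had the element in 33.3% (31.4% to 35.3%) and those not called again in 19.0% (17.5% to 20.7%). Where in addition no PPARα or PPARδ list had a peak, 629 of 1618 windows (38.9%) held it. The STAT letters, which share the arms of this palindrome, were in 21.5% of BCL6-specific and 11.9% of shared windows (adjusted exact p = 2.65e-50).

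With promoter and distal windows together, the DR1 was found in all 3 classes at over 3 times its share to the side. It was in 1512 of 10454 PPARα-specific windows (14.5%, 13.8% to 15.2%) and 1426 of 10956 shared windows around PPARα centers (13.0%, 12.4% to 13.7%), against 3.35% and 3.30% to the side and 2.10% at coding starts. The odds ratio was 0.885 (0.819 to 0.957, adjusted exact p = 0.00383). Within promoters the order was the opposite, with 12.7% (10.1% to 16.0%) of shared and 7.53% (6.28% to 9.01%) of PPARα-specific windows. The side windows of these held 2.26% and 3.21%. Around BCL6 centers the DR1 was in 12.1% of shared and 8.24% of BCL6-specific windows (odds ratio 1.54, 1.37 to 1.73, adjusted exact p = 5.41e-13). BCL6-specific promoter windows held it in 6.80%, against 3.40% to the side. The promoter windows were not tested apart. Most peaks of every class thus had no match to either element at these limits.

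Elements of liver factors were more common at shared peaks than at PPARα-specific peaks. C/EBP letters were in 27.4% of shared and 18.3% of PPARα-specific windows (adjusted exact p = 1.6e-56), HNF6 in 10.9% and 5.51% (adjusted p = 1.42e-46), HNF4 in 21.5% and 17.7% (adjusted p = 5.27e-12) and FOXA in 9.87% and 7.03% (adjusted p = 2.43e-13). Side windows held these at 7.98% to 8.65%, 1.98% to 2.72%, 6.31% to 6.44% and 2.75% to 3.09%, and coding starts at 6.13%, 0.939%, 5.06% and 1.78%. Against BCL6-specific peaks, shared peaks had more C/EBP (27.3% and 21.1%, adjusted exact p = 1.29e-15) and HNF4 (21.1% and 17.9%, adjusted p = 6.34e-06). FOXA did not pass (9.99% and 9.18%, interval of the odds ratio 0.977 to 1.23, adjusted exact p = 0.155). HNF6 was lower at shared than at BCL6-specific peaks (11.1% and 12.7%, adjusted exact p = 0.00708), but not with repeats left out (odds ratio 0.958, adjusted p = 0.588). Both HNF4 differences failed when an exact match was asked for (adjusted exact p = 0.0828 and 0.341).

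Elements common at coding starts were more frequent in the PPARα-specific class. The GC box was in 12.1% of PPARα-specific and 2.54% of shared windows (odds ratio 0.189, 0.166 to 0.216, adjusted exact p = 1.67e-170) and in 43.6% of windows at coding starts. ETS letters were in 1.82% and 0.183% (odds ratio 0.0988, 0.0623 to 0.157, adjusted exact p = 1.45e-37), with 4.49% at coding starts. Within promoters, the GC box was in 644 of 1434 PPARα-specific (44.9%) and 49 of 487 shared windows (10.1%), and ETS letters in 136 (9.48%) and 6 (1.23%). Outside promoters both differences remained past the threshold (odds ratios 0.303 and 0.222). NRF1 (0.306% and 0.119%), CRE (0.440% and 0.246%) and YY1 (0.143% and 0.0274%) were rare and passed only with promoters included, at adjusted exact p = 0.00443, 0.0253 and 0.00566. NFY was slightly higher at shared windows (11.7% and 9.84%, adjusted exact p = 3.17e-05). None of these 5 elements nor the GC box differed between shared and BCL6-specific peaks at the threshold (Fisher's exact tests, adjusted p = 0.665 to 1).

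**Figure D4:**
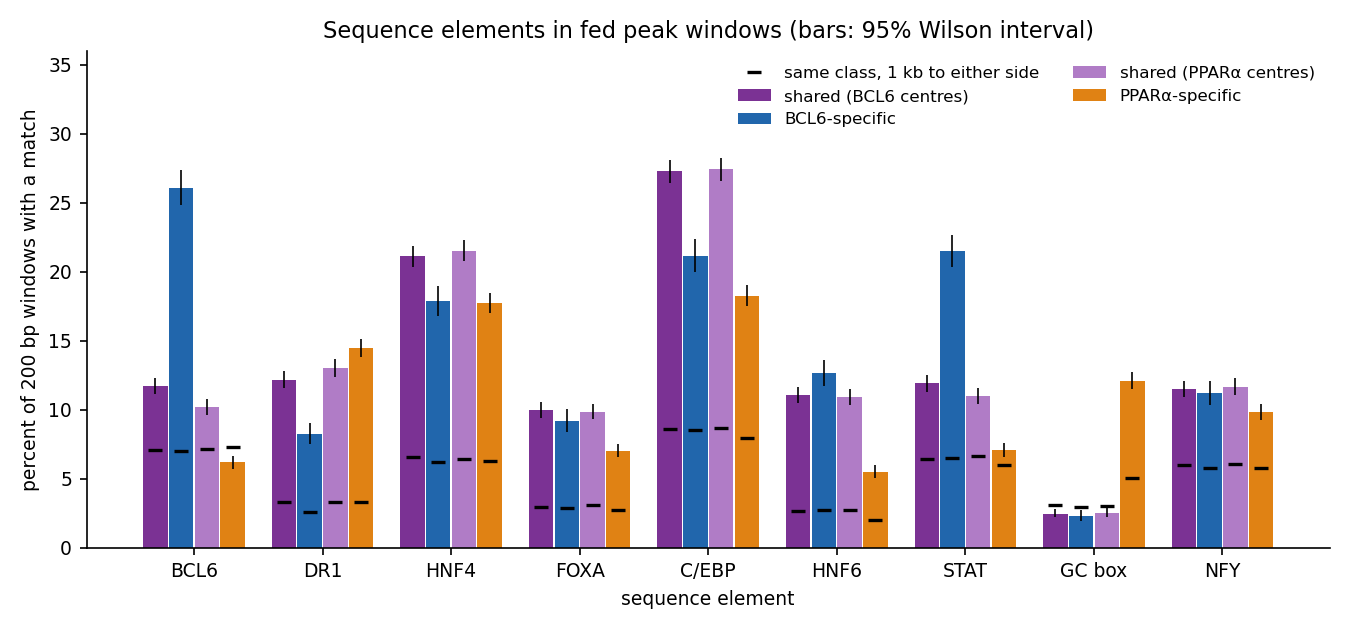
Percent of 200 bp windows (y axis) of each class with a match to 9 of the 13 elements (x axis), with 95% Wilson intervals; black dashes give the same windows moved 1 kb to either side. The BCL6 element stands at 26.1% in BCL6-specific windows and the GC box at 12.1% in PPARα-specific windows.

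Within a pair, the elements leaned toward their own factor. Among pairs at least 10 bp apart, the BCL6 element lay nearer to the BCL6 than the PPARα center in 772 of 1190 pairs that held it (64.9%, 62.1% to 67.5%). The DR1 lay nearer to the BCL6 center in 522 of 1270 pairs (41.1%, 38.4% to 43.8%). The odds ratio between the elements was 2.65 (2.25 to 3.12, Fisher's exact test, p = 2.22e-32). The median distance of the BCL6 element was 46 bp from the BCL6 center and 60 bp from the PPARα center, and that of the DR1 was 46 bp and 40 bp. HNF4 (48.9% nearer to BCL6, 46.8% to 51.0%) and C/EBP (49.0%, 47.1% to 50.9%) letters were even between the centers, and FOXA (54.2%, 51.1% to 57.3%) and HNF6 (54.5%, 51.5% to 57.4%) lay slightly nearer to BCL6.

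Each peak was next assigned to a protein-coding gene, the one whose start lay nearest, up to 1 Mb away. Shared peaks had 4792 nearest genes (22.8% of 21000), BCL6-specific peaks 3240 (15.4%) and PPARα-specific peaks 5575 (26.5%). Of the 8253 genes with any fed peak, 1382 had all 3 classes, 1619 had shared and PPARα-specific peaks, 562 shared and BCL6-specific peaks, and 409 the 2 specific classes. The genes with only 1 class numbered 1229 for shared, 887 for BCL6-specific and 2165 for PPARα-specific peaks. Specific peaks often stood at genes that also had a shared peak, 66.8% of BCL6-specific and 65.4% of PPARα-specific peaks. Genes with any shared peak had a median of 2, and those with any peak of a specific class a median of 1 of that class.

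The genes with the most shared peaks were *Adgrl2*, an adhesion receptor gene, with 21, *Rora*, a nuclear receptor of the clock, with 21, and *Pik3r1*, the regulatory subunit of the insulin-activated PI3 kinase, with 20. *Lpp*, a focal adhesion gene, had 19 and *Myc* 18. *Adgrl2* also led the BCL6-specific peaks with 12, followed by *Ext1* (heparan sulfate synthesis), *Lpp*, *Nfib* and *Tbl1xr1* with 9 each. *Tbl1xr1* encodes a subunit of nuclear receptor corepressor complexes. PPARα-specific peaks were most numerous at *Gse1* (17), *Rreb1* (15), *Septin9* (14), *Arid1b* (13) and *Scarb1* (13), the HDL receptor gene. *Septin9* had no peak of the other classes. Long genes and wide gaps between genes collect more peaks, so these ranks are not per length.

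The genes that the study followed by qPCR were chosen there at sites bound by both factors, from these same data, so the shared peaks at them are a description and no evidence. *Angptl4*, an inhibitor of lipoprotein lipase, had 4 shared peaks and no other, and all 4 recurred in the *Bcl6* fl/fl and fasted PPARα lists. *Cyp4a31*, a fatty acid ω-hydroxylase gene, had 3 shared peaks, 2 of them with centers 0 and 3 bp apart. The fatty acid transporter gene *Cd36* had 5 shared and 1 BCL6-specific peak. *Por*, the electron donor of microsomal P450 enzymes, had 7 shared peaks, 1 in the promoter 412 bp upstream, and 1 peak of each specific class. *Bdh1* had 4 shared peaks, 1 of them 58 bp upstream of its start, 1 BCL6-specific peak and 2 PPARα-specific peaks.

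Some of these genes were mixed. Ehhadh, the bifunctional enzyme of peroxisomal β-oxidation, had 6 shared, 1 BCL6-specific and 4 PPARα-specific peaks, and its promoter peak, 68 bp upstream, was PPARα-specific. *Fads2*, the Δ6 desaturase gene, had 2 shared, 1 BCL6-specific and 3 PPARα-specific peaks, with a PPARα-specific peak 188 bp upstream and a BCL6-specific peak 1007 bp upstream of its start. *Abhd2* had 6 shared and 3 PPARα-specific peaks, and the mitochondrial isocitrate dehydrogenase gene *Idh2* had 2 of each. In the thioesterase cluster on chromosome 12, *Acot3* had 3 shared peaks. *Acot4* had 3 shared peaks (1 at 72 bp upstream of its start) and 1 of each specific class, and *Acot2* had a lone PPARα-specific peak 491 bp upstream. The study's ChIP-qPCR region for *Acot2* lay farther upstream than this peak, and no fed peak there was assigned to *Acot2*. A peak counts for another gene if the start of that gene lies nearer. The authors kept uniquely placed reads, so near-identical copies such as the Acot and Cyp4a genes can lack peaks.

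Of the genes of the factors themselves, all but *Ppard* carried many peaks. *Bcl6* had 12 shared, 4 BCL6-specific and 4 PPARα-specific peaks, and the BCL6-specific peak whose sequence is given was the only one in exon 1. That peak recurred in *Bcl6* fl/fl livers but was in neither fasted list and had no PPARδ peak. *Ppara* had 6 shared and 8 PPARα-specific peaks and no BCL6-specific peak. *Rxra*, the partner of all PPARs, had 4 shared and 4 PPARα-specific peaks, and *Ppard* 1 shared peak in intron 1. The study reported BCL6 at multiple intronic sites of *Ppard*. The count here holds only fed C57BL/6 peaks whose nearest coding start was that of *Ppard*.

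For the lists below, the shares of all 21000 genes give the comparison. These were 22.8% for shared, 15.4% for BCL6-specific and 26.5% for PPARα-specific peaks, and 1.96%, 0.752% and 6.21% for promoters. The genes of fatty acid breakdown were nearest to shared peaks more often than the 22.8% of all genes. Of 19 mitochondrial β-oxidation genes, 12 (63.2%) had a shared peak, 4 a BCL6-specific and 12 a PPARα-specific peak. PPARα-specific promoters were at 7 of 19 (36.8%) against 6.21% of all genes, among them *Acaa2*, *Etfa*, *Etfb*, *Echs1* and *Eci1*. Of the 19 genes, 18 had CpG-rich promoters, against 61.5% of all genes. Shared promoter peaks were at *Acadm*, the medium-chain acyl-CoA dehydrogenase gene, and *Eci2*. Of 8 carnitine shuttle genes, 5 had a shared and 7 a PPARα-specific peak. *Cpt1a*, the entry enzyme of mitochondrial oxidation, had 3 shared and 2 PPARα-specific peaks and none in the promoter, whereas *Cpt2*, *Slc25a20* and *Cpt1b* had PPARα-specific promoters. Of 17 peroxisomal genes, 12 (70.6%) had a shared peak, led by *Abcd3* with 8. Shared promoter peaks were at *Acaa1b*, *Acnat2*, *Acox2* and *Ech1* and PPARα-specific ones at several, among them Ehhadh, *Acaa1a* and *Amacr*.

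Microsomal ω-oxidation genes had a shared peak at 11 of 12 (91.7%), with shared promoters at *Por*, *Cyp4a32* and *Cyp4f14* and none with PPARα-specific peaks alone. Ketone body genes had a shared peak at 5 of 7, with a shared promoter at *Bdh1* among others. Among 18 genes of fatty acid uptake and activation, 13 had a shared peak, led by the acyl-CoA synthetase gene *Acsl1* with 12. *Fabp1*, the fatty acid binding protein of liver, had 7 shared peaks and no other, including 1 in the promoter 89 bp upstream with centers 2 bp apart. Acyl-CoA thioesterase genes had a shared peak at 7 of 12 and 1 promoter (8.33%) of each class.

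Of 18 genes of lipid droplets and lipases, 7 (38.9%) had a shared and 14 (77.8%) a PPARα-specific peak, with PPARα-specific promoters at the droplet coat genes *Plin2* and *Plin5* and at *Fitm2*. Lipogenesis and desaturation genes had a shared peak at 16 of 20, a BCL6-specific peak at 12 of 20 (60.0%, against 15.4% of all genes) and a PPARα-specific peak at 18 of 20. *Elovl6* led with 11 shared peaks, 1 of them in its promoter. BCL6-specific promoters were at *Lpin2* and *Thrsp* and PPARα-specific ones at *Acly*, *Me1*, *Mlxipl*, *Gpam* and *Fads2*. Of 18 genes of cholesterol and bile acids, 14 had a shared peak and 7 (38.9%) a shared promoter, including *Cyp7a1*, the rate-limiting enzyme of bile acid synthesis, *Cyp8b1*, *Cyp27a1* and *Nr0b2*, the SHP repressor gene.

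Glucose and hormone genes were also dense in shared peaks. Gluconeogenesis and glycogen genes had a shared peak at 13 of 16 (81.3%) and a shared promoter at 7, among them *Pck1*, *G6pc* and *Fbp1*. The other promoters of that list included 6 PPARα-specific ones, such as *Pdk4* and *Pcx*. Insulin and growth hormone signalling genes had 126 shared peaks near 16 of 20 genes. *Irs2* and *Igf1* had 16 each, and *Foxo1* and *Ghr* 14 each. Shared promoters in that list were at *Irs2*, *Igfbp1*, *Socs2*, *Cish* and *Stat5b*, and BCL6-specific ones at *Igf1* and *Akt2*. Of 10 hepatokine genes, 8 had a shared peak, and the promoters of *Ahsg*, *Angptl8* and *Fetub* were shared.

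Of 26 receptors and liver transcription factors, 21 had a shared and 21 a PPARα-specific peak, and 5 (19.2%, against 1.96% of all genes) had a shared promoter and 2 (7.69%) a PPARα-specific one. The list was led by *Foxa2* with 17 shared peaks and *Nr5a2* with 13. Of 19 clock genes, 12 (63.2%) had a shared and 11 (57.9%, against 15.4% of all genes) a BCL6-specific peak. A PPARα-specific promoter was at 7 (36.8%, against 6.21%), including *Clock*, *Nr1d1* and *Nfil3*, while none had a shared one. Of 12 genes of BCL6 and its corepressors, 6 (50.0%) had a shared and 4 (33.3%) a BCL6-specific peak, and none had a shared promoter. Among them, *Tbl1xr1* had 17 shared and 9 BCL6-specific peaks and *Bcor* 11 and 6. Of 23 autophagy genes, 11 (47.8%) had a shared peak, 11 a PPARα-specific peak and 4 a PPARα-specific promoter, among them *Atg7*, *Atg5* and *Gabarapl1*.

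Lists of general cell functions had shared peaks at a share of genes below or near the 22.8% of all genes, except the tricarboxylic acid cycle. Shared peaks were near 7 of 18 tricarboxylic acid cycle genes (38.9%), 4 of 36 complex I genes (11.1%), 8 of 31 proteasome genes (25.8%), 7 of 30 splicing genes (23.3%), 3 of 28 DNA replication genes (10.7%) and 3 of 30 keratins (10.0%). In the promoters of the first 5 of these lists no shared peak was found, and PPARα-specific promoters numbered 3 (16.7%), 4 (11.1%), 1 (3.23%), 4 (13.3%) and 2 (7.14%), against 6.21% of all genes. BCL6-specific promoters were at 2 of the proteasome genes (6.45%) and 1 of the splicing genes (3.33%), against 0.752% of all genes. The PPARα-specific ones include *Cs* of the cycle and *Ndufs5* and *Ndufb2* of complex I.

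Among cell type markers, 15 of 17 hepatocyte genes (88.2%, against 22.8% of all genes) had a shared peak. All 17 had some fed peak, against 39.3% of all genes. Shared promoters were at 8 (47.1%, against 1.96%), including *Alb*, *Ttr*, *Cyp2e1* and *Apoc3*. None of 12 Kupffer cell markers had a fed peak, and 2 of 10 stellate cell markers did. Endothelial markers had a fed peak near 8 of 10 and cholangiocyte markers near 5 of 8, with no promoter peak in either list. A shared peak was near 7 of the endothelial (70.0%) and 3 of the cholangiocyte markers (37.5%), also above the 22.8% of all genes. The nearest gene need not be the gene a site acts on, and the marker counts were not tested against any class.

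**Figure D5:**
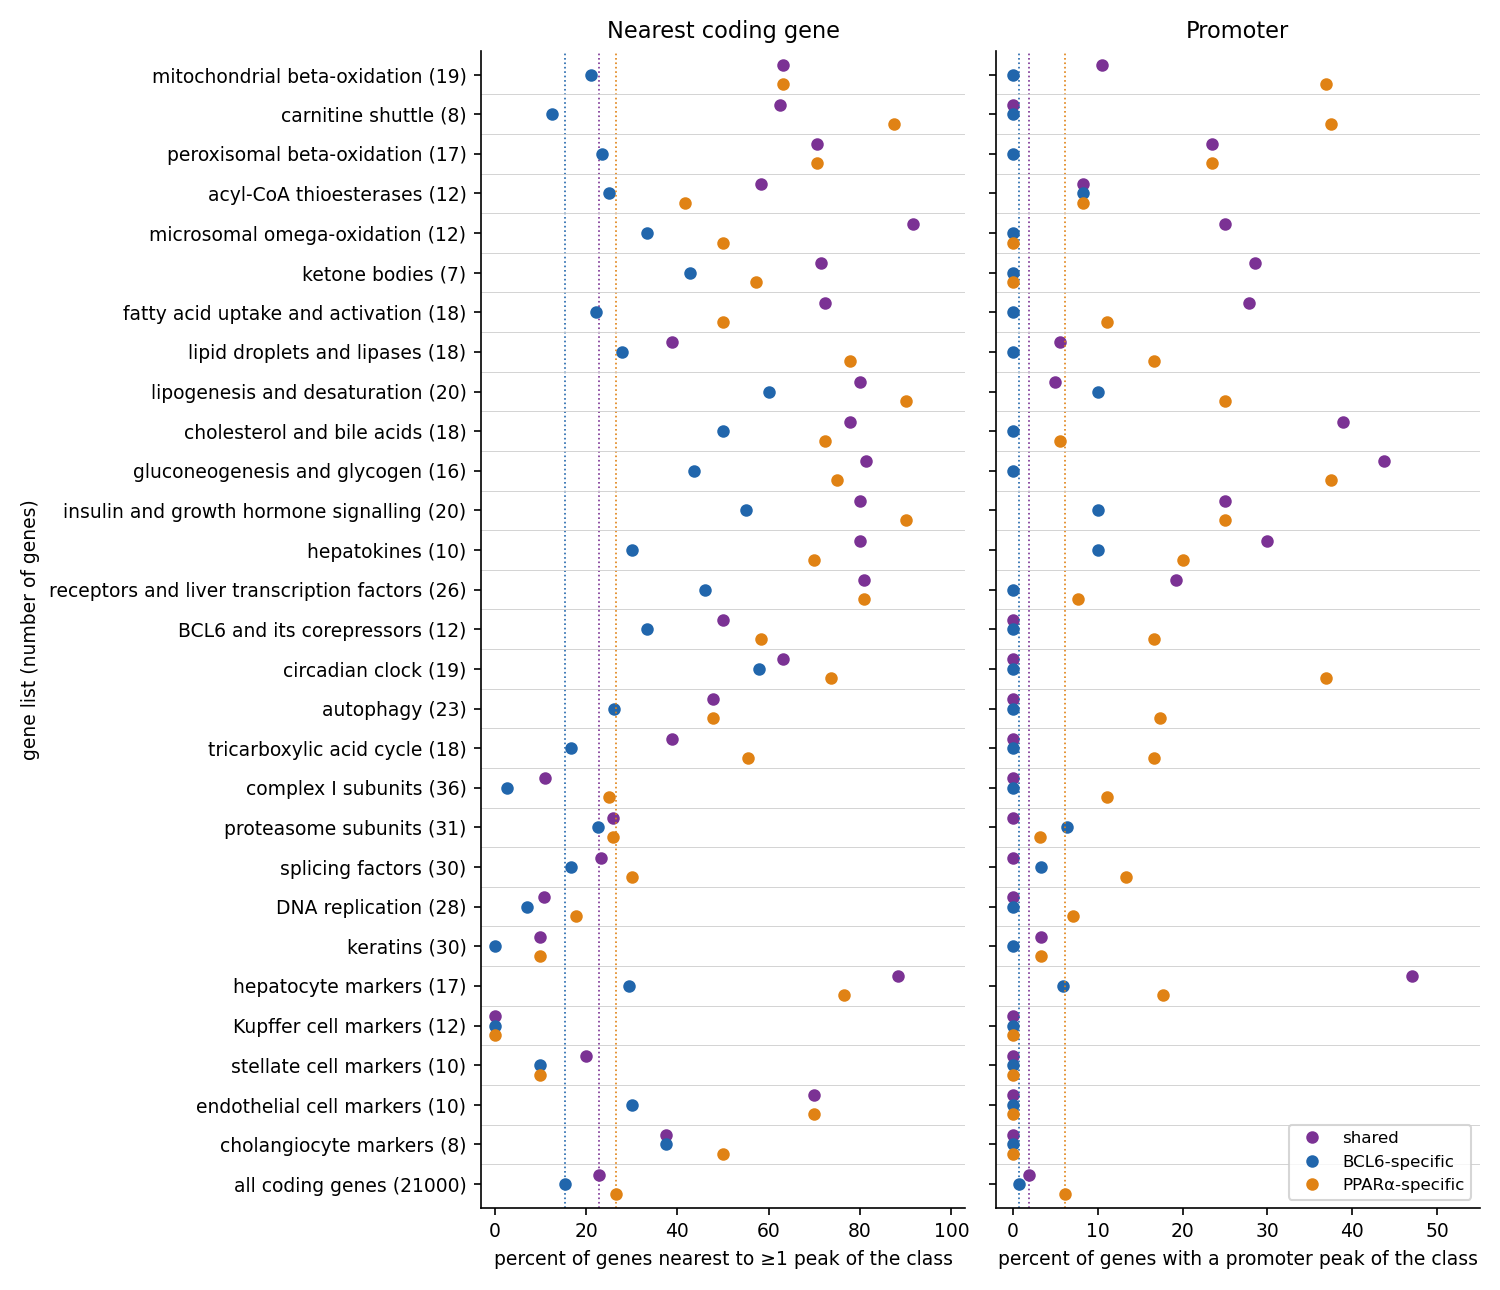
Gene lists (rows, with the number of genes) against the percent of genes that were the nearest coding gene of at least 1 peak of a class (left, x axis) and against the percent with a promoter peak of a class (right, x axis; specific classes count genes with no other class there); dotted lines mark all 21000 coding genes. Mitochondrial β-oxidation, carnitine shuttle and clock promoters lie to the right for PPARα-specific peaks (36.8% to 37.5%), hepatocyte marker promoters for shared peaks (47.1%), and gluconeogenesis promoters for both (37.5% and 43.8%).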

How the data were processed

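Reads had been mapped by the authors with Bowtie to mm10, where only unique placements were kept. HOMER was then run on the pooled replicates with input as control, and the peaks were filtered by a count model of the replicates against input. The study's match distance was kept. The deposited lists hold peak positions (chromosome, start and end in bp) and no counts, scores or p-values. The values are coordinates, so no normalization applies. Of the 7 lists, 6 were used here and fasted PPARδ was left out. Transcripts (45756) and sequence came from RefSeq on GRCm38, the assembly of mm10. The members, gene lists (28, with 1 symbol not found in RefSeq) and elements were chosen with earlier results of these data known, and support nothing on their own. Named genes were the study's qPCR genes with *Bcl6*, *Ppara*, *Ppard* and *Rxra*, the 5 genes with most peaks of each class, up to 4 genes per list by fed peaks, and list genes with a shared promoter peak. Other list genes, among them those with specific promoter peaks, were chosen after their values were seen. A promoter was CpG-rich if a 500 bp window within 1000 bp of a start had G+C of at least 0.55 and an observed to expected CpG ratio of at least 0.6, and CpG-poor if no window reached 0.4; a gene took its most CpG-rich start. For proportions, Fisher's exact test was used (two-sided), adjusted by Benjamini-Hochberg within each set of tests, at 0.05. Functions were tested on simulated data. Alternatives covered the match distance, the BCL6 list, promoter bounds, windows, mismatches, repeats and gene reach. Python 3.11.15, NumPy 2.4.6, SciPy 1.17.1, pandas 2.3.3, pysam 0.24.0 and Matplotlib 3.10.9 were used. Some genes of the lists are not reported here by name.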

Additional observations from a re-analysis of the deposited data

How the results depend on the processing

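No paired analysis was possible because each deposited list pools its 3 replicates and gives positions only, so replicates could not be left out and a stricter peak threshold could not be set. The shared part of the BCL6 peaks was 67.4% within 100 bp, 71.0% within 400 bp, 67.9% with the fed *Bcl6* fl/fl list and 78.7% for BCL6 peaks called in both fed lists. The shared part of the PPARα peaks was 49.3%, 51.9%, 55.4% and 39.9% in these settings. Interval overlap, single linkage and autosomes alone left both shares within their intervals. The promoter share of shared against BCL6-specific peaks passed the test, among the alternatives run, only with the *Bcl6* fl/fl list (odds ratio 0.677), and the cause was not tested. The other tests of location, CpG class, recurrence, fasting, PPARδ, the BCL6 and DR1 elements and offsets kept their direction and their side of the threshold under the alternatives run. Numbers of nearest genes stayed within 1.5 times, except stellate cell markers with a shared peak (2, and 1 within 100 kb). Odds ratios moved by more than 1.5 times for promoters against PPARα-specific peaks, with the *Bcl6* fl/fl list (0.502 for shared and 0.735 for BCL6-specific peaks) and with the widest promoter bounds run (0.468 and 0.439). With exact matches only, the BCL6 element gave 0.238 for shared against BCL6-specific and 3.67 against PPARα-specific peaks, and with 1 mismatch fewer for each element the offset gave 4.28. Of the single elements, CRE turned in 50 bp windows (odds ratio 1.27) and NRF1 outside promoters (1.05), each without passing the test there, and 7 other values no longer passed, for NFY, YY1, HNF4, CRE and HNF6. In 50 bp windows YY1 had a count of 0 and so no interval, and NRF1 against BCL6-specific peaks gave no value. Depth is unknown, so an absent call may reflect it.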
